A study of Mus musculus with 6 samples.

Results

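The potassium channel genes of MIN6 cells were examined, taken as all genes with a symbol beginning with *Kcn* together with *Abcc8* and *Abcc9*, which encode the sulphonylurea receptors of the ATP-sensitive (KATP) channels. By this rule 82 of the 16640 genes in the deposited table were members, and 45 of them had a mean of at least 1 CPM (counts scaled by the total of the library) over the 6 libraries and are called expressed here. The most abundant per length was *Abcc8*. No member passed the test between control and *Thada*-activated cells over all 6 libraries, whereas the replicate 3 libraries of both conditions held far fewer KATP channel transcripts than the replicate 1 and 2 libraries.

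MIN6 cells are mouse pancreatic β cells, a line derived from an insulinoma. In the *Thada*-activated cells, a first lentivirus delivered dCas9-VP64 (selected with puromycin) and a second delivered sgRNA-MS2-P65-HSF1 with a guide to the *Thada* promoter (selected with G418), a system that raises transcription of the endogenous gene without cutting DNA. Control cells received lentiviruses for dCas9 and a non-targeting sgRNA, so both groups carried viral constructs. The activated cells are described as a stable line. Independent repeats are stated for the cell culture work in general, without a description of the culture behind each library. Without a block, the p-values below rest on the spread between these libraries. Where the replicate number is a block in the fit, the spread between replicate numbers is taken out first. Those p-values rest on what remains.

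Potassium channels let potassium leave the cell and hold the membrane of a β-cell at a negative voltage. At low glucose the KATP channel, built from pore subunits encoded by *Kcnj11* and regulatory subunits encoded by *Abcc8*, is open. ATP made from glucose closes it, the membrane depolarizes, voltage-gated calcium channels open and insulin is released, after which voltage-gated and calcium-activated potassium channels return the membrane to rest.

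*Thada*, the target of the activator, had 27.7, 28.95 and 16.96 CPM in control replicates 1, 2 and 3. The *Thada*-activated libraries held 57.4, 56.2 and 50.2 CPM, so every activated library lay above every control library. By edgeR's quasi-likelihood test the log2 fold change was 1.13 ± 0.22 (standard error), adjusted p = 1, and with the replicate number as a block in the fit it was 1.15 ± 0.10, adjusted p = 0.00041. Standard errors follow ± for all log2 fold changes, and SDs for means. Library totals lay between 17166511 and 17727004 counts, and a single count was worth from 0.0564 to 0.0583 CPM. The label of a β-cell line was checked against 12 β-cell markers, of which 11 were at 1 CPM or more. The exception was *Slc2a2*, the glucose transporter, at no more than 0.523 CPM in any library. *Ins2* took between 5.65% and 10.2% of all counts, and the acinar, endothelial and immune markers in the table did not exceed 1.24 CPM each. Of the fibroblast markers *Col1a1* had at most 3.54 CPM, in activated replicate 3. *Col1a2* had 1.22, 1.46 and 0.791 CPM in control and 1.92, 1.67 and 1.97 CPM in activated replicates 1, 2 and 3, without overlap. By edgeR's test the log2 fold change of *Col1a2* was 0.66, or 0.67 with the block (adjusted p = 0.431). The ductal marker *Sox9* did not exceed 0.0581 CPM in any library. The ductal marker *Krt19* had 0.521, 0.524 and 0.339 CPM in control and 2.37, 1.496 and 1.05 CPM in activated replicates 1, 2 and 3, without overlap. By edgeR's test its log2 fold change was 1.79 (adjusted p = 1), or 1.78 with the block (adjusted p = 0.0548), a larger estimate than that of any tested potassium channel gene. Hormone genes of other islet cells were detected, *Gcg* of α-cells at 22.1, 19.4 and 13.6 CPM in control and 18.2, 20.4 and 18.2 CPM in activated replicates 1, 2 and 3, and *Ppy* of PP cells at 19.5, 17.8 and 27.5 against 22.6, 21.6 and 39.8 CPM.

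The 45 expressed members covered every main class of potassium channel. They were 2 of 4 KATP genes, 4 of 9 other inward rectifiers, 4 of 13 two-pore-domain leak channels, 10 of 13 voltage-gated pore subunits and 2 of 8 electrically silent subunits. In addition 5 of 7 genes of the EAG, ERG and ELK class, 3 of 4 KCNQ genes, 6 of 8 calcium- or sodium-activated pore genes and 9 of 15 auxiliary subunits were expressed, while *Kcnrg*, which fits none of these classes, was not. Of the 37 members below 1 CPM, 22 had at most 3 counts in each library, a level taken as the floor. The threshold fell between *Kcnmb4* with a mean of 1.21 CPM and *Kcnh4* with a mean of 0.958 CPM, and members with means between 0.5 and 2 CPM count as near it. Among these were *Kcnj2*, *Kcnc1* and *Kcnmb4* above and *Kcnh4*, *Kcng3* and *Kcnk2* below. The filter of edgeR kept 47 members for testing, the 45 expressed ones and, below the threshold, *Kcng3* and *Kcnh4*.

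Levels were compared between genes by FPKM, the deposited values per length. High means were 237 FPKM for *Abcc8*, 177 for *Kcnh6*, 90.9 for *Kcnip1*, 49.3 for *Kcnip3*, 40.3 for *Kcnk1*, 36.2 for *Kcnj11*, 31.5 for *Kcnh2*, 23.2 for *Kcnh1* and 15.5 for *Kcnab2*. By mean FPKM *Abcc8* stood at place 271 among the 16640 genes and *Kcnj11* at place 2356. This order belongs to the mean over 6 libraries and did not hold in each of them. In both replicate 3 libraries *Kcnh6* and *Kcnip1* exceeded *Abcc8*, with 115, 119 and 57.7 FPKM for *Kcnh6*, *Kcnip1* and *Abcc8* in control replicate 3 and 153, 130 and 85.7 FPKM in *Thada*-activated replicate 3.

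**Figure D1:**
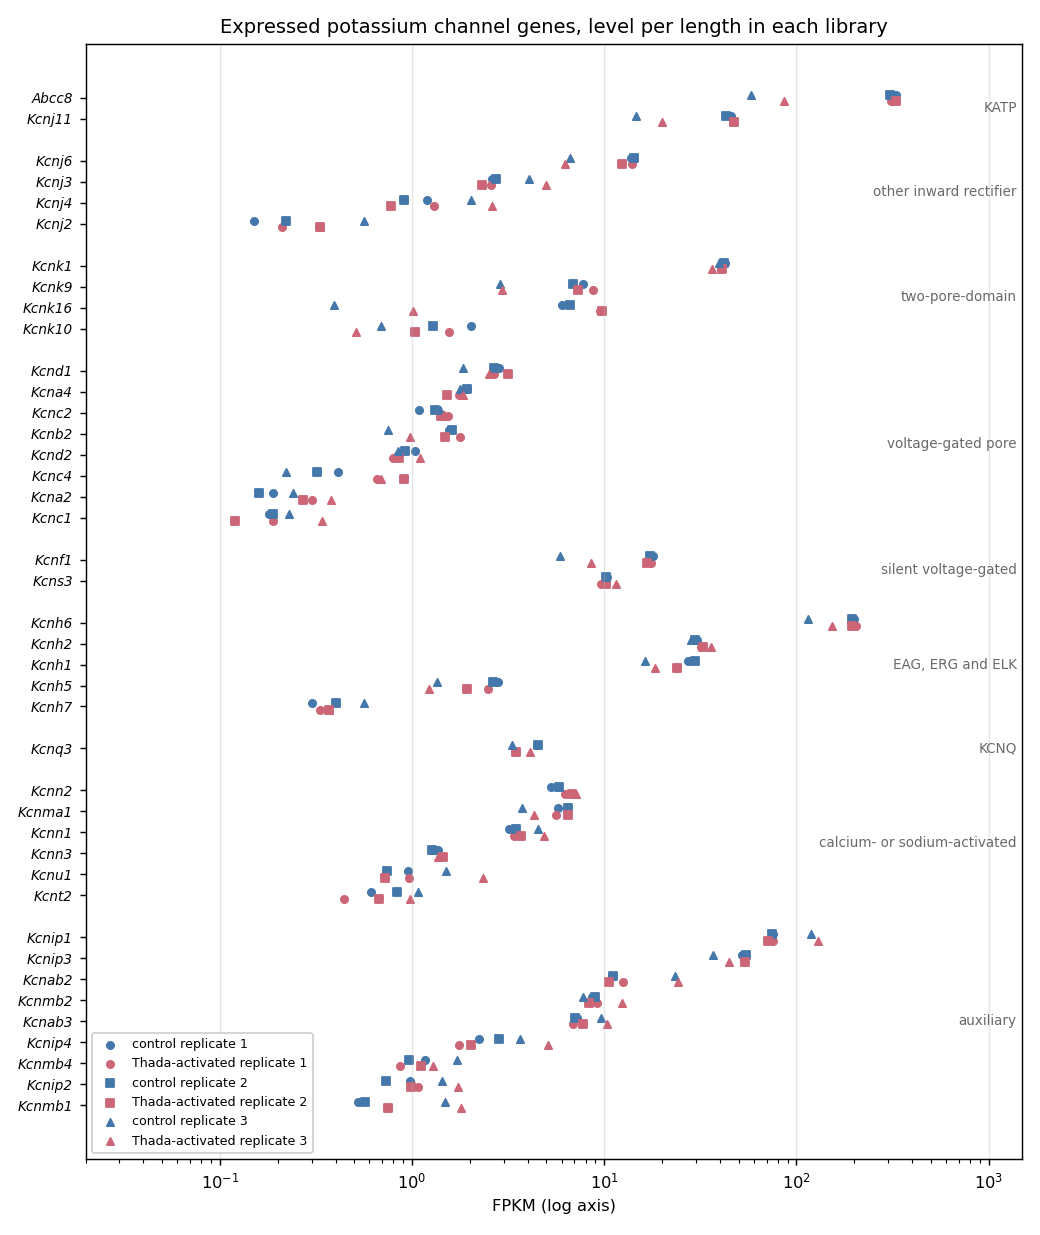
FPKM (log axis) of expressed potassium channel genes in each library, not all of which are shown, ordered by class and by mean within the class. Blue marks are control and red marks *Thada*-activated libraries, with triangles for replicate 3, which lie to the left for *Abcc8*, *Kcnj11* and *Kcnk16* and to the right for *Kcnip1* and *Kcnab2*.

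Of the 4 KATP genes, *Abcc8* and *Kcnj11*, the pair known from β-cells, were expressed. *Abcc8*, the sulphonylurea receptor (gene ID 20927, chr7:46104523-46180039 in GRCm38), had 1654, 1534 and 297 CPM in replicates 1, 2 and 3 of control cells, and the activated cells had 1546, 1656 and 439 CPM. Both replicate 3 libraries were far below the other 4, and the conditions overlapped. *Kcnj11*, the pore subunit (gene ID 16514, chr7:46093108-46100867), had 134, 126 and 42.2 CPM in control libraries, and 137, 140 and 58.3 CPM in activated ones, in the same order of replicates. Again replicate 3 was lowest in each condition and the conditions overlapped. The paralogous pair of other tissues was nearly silent, with at most 1 count of *Kcnj8* and at most 5 counts of *Abcc9* in any library. *Kcnj11* and *Abcc8* are neighbours with 3655 bp between them, and *Kcnj8* and *Abcc9* are neighbours on chromosome 6.

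Neither KATP gene passed the test between conditions. For *Abcc8* the mean of control libraries was 1162 ± 751 CPM and that of activated libraries 1214 ± 673 CPM (SD, n = 3 each; exact permutation test, two-sided, p = 0.6, with 0.1 the smallest p possible). By edgeR's test its log2 fold change was 0.05 (standard error 0.75, adjusted p = 1) and 0.17 (standard error 0.10, adjusted p = 0.597) with the replicate block. For *Kcnj11* the means were 101 ± 51.0 and 112 ± 46.4 CPM (SD, n = 3 each; exact permutation test, two-sided, p = 0.5). The corresponding estimates were 0.13 (standard error 0.53, adjusted p = 1 in edgeR's test) and, with the block, 0.18 (standard error 0.08, adjusted p = 0.443). Without the block either sign was possible with 1 library left out, from -0.41 to 0.45 for *Abcc8* and from -0.23 to 0.45 for *Kcnj11*.

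Within each replicate number the 2 genes gave the following ratios of activated over control CPM. For *Abcc8* they were 0.935, 1.08 and 1.48 in replicates 1, 2 and 3, and for *Kcnj11* 1.02, 1.11 and 1.38. The largest ratio of each gene thus came from replicate 3, where both were lower than in the other libraries, and replicates 1 and 2 alone gave log2 fold changes of -0.0025 and 0.08.

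Among the other inward rectifiers, *Kcnj6* and *Kcnj3*, which form channels opened by G proteins, led with means of 11.2 and 3.21 FPKM. The remaining 2 expressed genes, *Kcnj4* and *Kcnj2*, encode strong rectifiers and had means of 1.47 and 0.300 FPKM. *Kcnj4* had 2.43, 1.98 and 4.35 CPM in replicates 1, 2 and 3 of control cells, and 2.59, 1.61 and 5.57 CPM in activated ones. It was highest in the replicate 3 libraries, and the conditions overlapped.

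The two-pore-domain channels carry leak current. *Kcnk1* was the most abundant of them and differed little among libraries, at 92.3, 90.5 and 88.6 CPM in control libraries and 88.3, 88.5 and 81.3 CPM in activated ones. The activated libraries were all lower than the control libraries, by a narrow gap, and edgeR's test gave a log2 fold change of -0.10 ± 0.09 (adjusted p = 1). *Kcnk9*, *Kcnk16* and *Kcnk10* had means of 6.08, 5.54 and 1.19 FPKM.

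*Kcnk16* encodes TALK-1, a leak channel known for its near restriction to the endocrine pancreas (gene ID 74571, chr14:20262756-20269162). It had 75, 81 and 5 counts in control replicates 1, 2 and 3 (4.34, 4.72 and 0.283 CPM) and 121, 122 and 13 counts in activated ones (6.83, 7.02 and 0.755 CPM). In every replicate number the activated library was the higher, by 1.57, 1.49 and 2.67 times. The conditions overlapped because replicate 3 of both was far lower than replicates 1 and 2. The log2 fold change was 0.63 (standard error 1.08, adjusted p = 1 in edgeR's test), and between 0.09 and 1.14 with 1 library left out. With the replicate block it was 0.66 (standard error 0.19, adjusted p = 0.242). Replicates 1 and 2 alone were past the threshold, at 0.60 (adjusted p = 0.0183 in edgeR's test). So was the blocked fit without pair 3, which used the same libraries (0.60, adjusted p = 0.0178). Without pair 1 or pair 2 the blocked fit gave adjusted p-values of 0.492 and 0.614.

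Of the voltage-gated pore subunits, *Kcnb2*, a delayed rectifier, was counted at 17.8, 20.2 and 5.88 CPM in control and 19.5, 17.7 and 9.41 CPM in activated replicates 1, 2 and 3. It was lowest in replicate 3 of each condition, with overlapping conditions. *Kcnf1*, an electrically silent subunit that joins other voltage-gated pores, shared the pattern at 83.0, 80.1 and 27.2 CPM in control and 81.2, 76.8 and 39.8 CPM in activated libraries. The other silent subunit, *Kcns3*, did not, and stayed between 23.4 and 27.7 CPM in all 6 libraries. The silent subunits *Kcnf1* and *Kcns3* had means of 14.0 and 10.3 FPKM. Among the pores *Kcnd1*, *Kcna4*, *Kcnc2*, *Kcnb2*, *Kcnd2*, *Kcnc4*, *Kcna2* and *Kcnc1* had means of 2.62, 1.79, 1.37, 1.36, 0.923, 0.535, 0.257 and 0.208 FPKM.

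Among the 47 tested members the 2 largest fold changes in the fit without a block were those of scarce voltage-gated genes. *Kcnc4*, a fast-inactivating channel subunit (gene ID 99738), had 27, 19 and 18 counts in control and 44, 57 and 52 counts in activated replicates 1, 2 and 3. These were 1.56, 1.11 and 1.02 CPM against 2.48, 3.28 and 3.02 CPM, with no overlap (two-sided exact permutation test, p = 0.1). In edgeR's quasi-likelihood test the log2 fold change was 1.22 ± 0.28 (standard error), the unadjusted p was 0.00426 and the adjusted p was 1. With the replicate block the estimate was 1.22 (standard error 0.26) and the adjusted p was 0.0911, the lowest of any member. *Kcnc4* was past the threshold in replicates 1 and 2 alone, at 1.09 with an adjusted p of 0.00986 in edgeR's test. The blocked fit without pair 3, which used the same libraries, was past it too (1.09, adjusted p = 0.0105). So was the blocked fit without pair 1 (1.54, adjusted p = 0.0167), but not without pair 2 (1.06, adjusted p = 0.427).

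*Kcna2*, a low-voltage-activated delayed rectifier (gene ID 16490), had 38, 31 and 49 counts in control and 60, 53 and 76 counts in activated replicates 1, 2 and 3. As CPM these were 2.20, 1.81 and 2.77 against 3.38, 3.05 and 4.41, and the conditions did not overlap. The ratio of activated over control was 1.54, 1.69 and 1.59 in the 3 replicate numbers. In edgeR's test the log2 fold change was 0.65 ± 0.27 (adjusted p = 1), and with the block it was 0.65 ± 0.19 (adjusted p = 0.26), just below the 0.66 of *Kcnk16*. *Kcna2* and *Kcnc4* lie on chromosome 3 with 323292 bp between them.

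**Figure D2:**
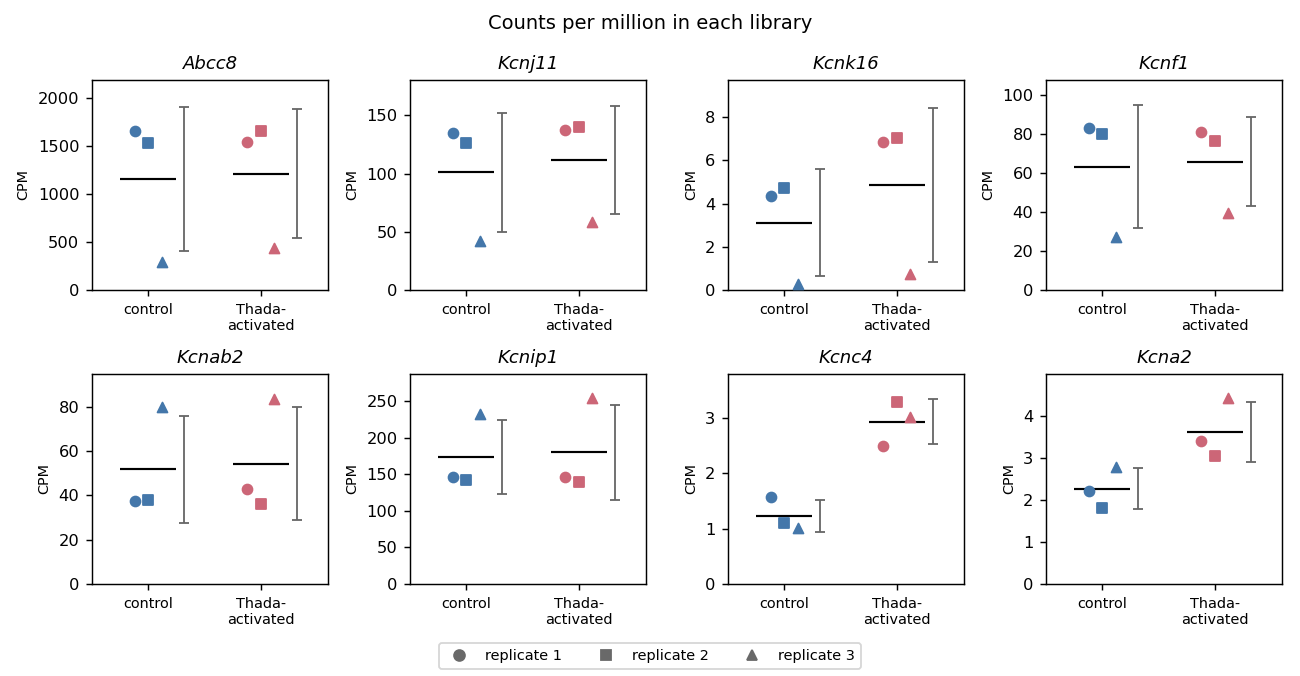
CPM of 8 potassium channel genes in each library, with the mean of each condition as a horizontal line and its SD (n = 3) as a bar. *Abcc8*, *Kcnj11*, *Kcnk16* and *Kcnf1* are lowest and *Kcnab2* and *Kcnip1* highest in replicate 3 of both conditions, whereas *Kcnc4* and *Kcna2* separate the conditions.

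*Kcnk16*, *Kcna2* and *Kcnc4* had the highest estimates between conditions, and the 250 bases before the start of 1 transcript of each are shown from RefSeq on GRCm38.p6, which held a promoter for 58 of the 82 members. Each was searched on both strands for the TATA box TATAAA, the box CCAAT, the GC box GGGCGG, the E-box CANNTG and the homeodomain core TAAT, and capitals mark the matches. The windows are chr14:20269270-20269519 on the minus strand for *Kcnk16*, chr3:107101317-107101566 on the plus strand for *Kcna2* and chr3:107458899-107459148 on the minus strand for *Kcnc4*. In GENCODE M21 *Kcna2* spans chr3:107101146-107115005 and *Kcnc4* chr3:107438303-107459552. Both of their windows lie inside the annotated gene, so other transcripts of these genes begin upstream.
Kcnk16: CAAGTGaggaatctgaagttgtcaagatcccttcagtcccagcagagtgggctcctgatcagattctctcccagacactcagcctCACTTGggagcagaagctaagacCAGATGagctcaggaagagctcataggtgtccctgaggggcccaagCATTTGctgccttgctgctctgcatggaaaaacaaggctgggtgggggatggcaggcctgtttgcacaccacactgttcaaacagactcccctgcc
Kcna2: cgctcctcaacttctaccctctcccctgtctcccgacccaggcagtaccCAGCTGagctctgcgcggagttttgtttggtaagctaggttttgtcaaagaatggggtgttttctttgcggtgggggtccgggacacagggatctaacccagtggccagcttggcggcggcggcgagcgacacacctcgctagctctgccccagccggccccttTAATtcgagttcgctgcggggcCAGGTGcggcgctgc
Kcnc4: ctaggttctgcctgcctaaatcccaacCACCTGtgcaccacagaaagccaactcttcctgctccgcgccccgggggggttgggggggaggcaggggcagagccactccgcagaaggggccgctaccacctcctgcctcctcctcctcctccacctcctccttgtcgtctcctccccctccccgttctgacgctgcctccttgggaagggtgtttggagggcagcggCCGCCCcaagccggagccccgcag
*Kcnk16* had 4 matches to CANNTG and none to the others, *Kcna2* had 2 to CANNTG and 1 to TAAT, and *Kcnc4* had 1 to CANNTG and 1 to GGGCGG. In the same window of all 32851 promoters of the table, CANNTG was found in 66.2%, TAAT in 54.9%, CCAAT in 33.8%, GGGCGG in 32.7% and TATAAA in 12.4%, so these matches are common ones. The G and C content was 54.8% for *Kcnk16*, 62.4% for *Kcna2* and 68.0% for *Kcnc4*, against a median of 52.4%.

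The EAG, ERG and ELK class, slow voltage-gated channels that shape repolarization, was led by *Kcnh6*, an ERG channel gene. *Kcnh6* was counted at 740, 718 and 408 CPM in control and 758, 734 and 555 CPM in activated replicates 1, 2 and 3. Its relative *Kcnh2* had 115, 113 and 106 CPM in control and 119, 124 and 138 CPM in activated libraries, and *Kcnh1*, of the EAG kind, had 187, 203 and 113 against 165, 165 and 128 CPM. *Kcnh6* and *Kcnh1* were lowest in replicate 3 of each condition. By edgeR's test *Kcnh1* had a log2 fold change of -0.16 (adjusted p = 1), or -0.13 with the block (adjusted p = 0.619). In replicates 1 and 2 alone it was -0.25 (adjusted p = 0.00124 in edgeR's test), a change below 1.5-fold. For *Kcnh2* the conditions did not overlap, and edgeR's test gave a log2 fold change of 0.16 ± 0.10 (adjusted p = 1), or 0.16 ± 0.07 with the block (adjusted p = 0.441). *Kcnh5* and *Kcnh7* had means of 2.07 and 0.388 FPKM.

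Of the KCNQ genes, which carry the M current, *Kcnq3* had a mean of 3.90 FPKM. Among the calcium- or sodium-activated channels, *Kcnn2*, *Kcnma1*, *Kcnn1* and *Kcnn3* had means of 6.19, 5.40, 3.86 and 1.35 FPKM, with *Kcnma1* the large-conductance and the *Kcnn* genes the small-conductance pores. *Kcnn2* had 15.2, 14.7 and 16.3 CPM in control and 17.8, 19.0 and 19.7 CPM in activated libraries. Every activated library was above every control library, and edgeR's test gave a log2 fold change of 0.27 ± 0.11 (adjusted p = 1), or 0.27 ± 0.09 with the block (adjusted p = 0.328). *Kcnu1* and *Kcnt2* had means of 1.21 and 0.767 FPKM. *Kcnu1*, known as a sperm channel, was counted at 3.01, 2.33 and 4.69 CPM in control and 3.05, 2.30 and 7.37 CPM in activated libraries, so that it too was highest in replicate 3. The deposited interval of *Kcnu1*, chr8:25836577-27319153, runs far past its interval in GENCODE M21, chr8:25849623-25937939. Whether all reads counted there belong to *Kcnu1* was not tested, so its values are uncertain.

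Auxiliary subunits were led by the *Kcnip* genes, which encode calcium-binding partners of Kcnd channels, although the pores *Kcnd1* and *Kcnd2* were scarce. *Kcnip1* was counted at 146, 143 and 232 CPM in control and 146, 139 and 254 CPM in activated replicates 1, 2 and 3. *Kcnip3*, whose product also binds DNA, had 136, 141 and 95.8 CPM in control and 139, 140 and 117 CPM in activated libraries. The 2 genes therefore went opposite ways in replicate 3. *Kcnab2*, a cytoplasmic subunit of Kcna channels, had 37.6, 37.9 and 79.7 CPM in control and 43.0, 36.2 and 83.5 CPM in activated libraries, and *Kcnmb1*, a partner of *Kcnma1*, had 2.03, 2.27 and 5.71 against 2.82, 2.88 and 6.85 CPM. Both were highest in replicate 3 of each condition. *Kcnmb2*, *Kcnab3*, *Kcnip4*, *Kcnmb4*, *Kcnip2* and *Kcnmb1* had means of 9.22, 8.16, 2.93, 1.19, 1.16 and 0.978 FPKM. *Kcnmb1* lies within the interval of *Kcnip1* on chromosome 11, and *Kcnk1*, *Kcnab2*, *Kcnab3*, *Kcnj6*, *Kcnj3*, *Kcnma1*, *Kcnn1*, *Kcnn2*, *Kcnh7*, *Kcnip4*, *Kcnmb4* and *Kcnt2* are among the expressed members that share exonic bases with other annotated transcripts. Whether counting used strand is not given in the sources used here, so reads of overlapping genes cannot be told apart and these values are uncertain to that extent.

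Over all members, 0 of the 47 tested were called between conditions at an adjusted p under 0.05 and a fold change over 1.5 in edgeR's quasi-likelihood test, as were 0% of all 12516 tested genes. At an unadjusted p under 0.05 there was 1 member, *Kcnc4*, and 101 genes in all. With the replicate block 0 members were called, against 0.152% of all tested genes (19), and DESeq2 without a block called 0 members and 0.0399% of all genes (5). In replicates 1 and 2 alone, 2 members were called, *Kcnk16* and *Kcnc4*, both higher in *Thada*-activated cells, against 0.545% of all tested genes (68). An adjusted p under 0.05 in edgeR's test of those 4 libraries, whatever the fold, was found for 2 further members, *Kcnh1* and *Kcnq3* (-0.31, adjusted p = 0.0114), both lower, and for 426 genes in all (3.41%). The blocked fit gave an unadjusted p under 0.05 with a higher estimate for 6 members (*Kcna2*, *Kcnc4*, *Kcnh2*, *Kcnj11*, *Kcnk16* and *Kcnn2*; 12.8% against 6.06% of all tested genes) and with a lower one for *Kcnh5* alone (2.13% against 4.34%). In CPM scaled by the trimmed mean of M values (TMM), control and activated libraries did not overlap for 5 members that were higher (*Kcna2*, *Kcnc2*, *Kcnc4*, *Kcnh2* and *Kcnn2*; 10.6%, where all tested genes gave 2.7%) and for 1 that was lower (*Kcnk1*; 2.13%, where all tested genes again gave 2.7%). In CPM by library total *Kcnn3* did not overlap either, at 10.1, 9.44 and 9.44 in control and 10.6, 10.8 and 10.2 in activated replicates 1, 2 and 3. The median log2 fold change of the 47 members was 0.05, and that of all tested genes was -0.0040.

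Replicate 3 differed from replicates 1 and 2 far more than the conditions differed. This difference was known beforehand and is described without a test. Summed over all 82 members, the control libraries held 3970, 3841 and 1968 CPM and the *Thada*-activated ones 3861, 3946 and 2481 CPM. Much of this sum was *Abcc8*, which made up 41.7%, 39.9% and 15.1% of the members' counts in control and 40.0%, 42.0% and 17.7% in activated replicates 1, 2 and 3.

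Members were counted as apart in replicate 3 where both of its libraries lay outside the range of the other 4 and the fitted difference was over 1.5-fold. By this rule 12 members were lower in replicate 3 (25.5% of those tested, against 15.4% of all tested genes) and 13 were higher (27.7%, against 15.8%). The lower ones included both KATP genes, 3 of the 4 tested two-pore-domain genes (*Kcnk16*, *Kcnk10* and *Kcnk9*), *Kcnb2*, *Kcnf1*, *Kcnj6*, *Kcnh5*, *Kcnh6* and *Kcnma1*. The 13 higher ones included 5 of the 9 tested auxiliary genes (*Kcnip1*, *Kcnip2*, *Kcnip4*, *Kcnab2* and *Kcnmb1*) and no auxiliary gene was among the lower ones. *Kcnj3*, *Kcnj4*, *Kcnt2*, *Kcnu1*, *Kcnc1*, *Kcng3* and *Kcnh4* were also higher. Of these, *Kcng3* and *Kcnh4* had 10 counts or more only in control replicate 1 and in replicate 3 of both conditions. Their passing the filter therefore depended on replicate 3, and their being higher there is not independent of it. The median log2 difference of the 47 members was 0.10, against 0.0011 over all tested genes.

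Replicates 1 and 2 exceeded replicate 3 by 11.1 times for *Kcnk16*, 4.42 times for *Abcc8*, 2.71 times for *Kcnj11*, 2.49 times for *Kcnb2* and 2.43 times for *Kcnf1* in the fit with condition as a second term. Replicate 3 exceeded replicates 1 and 2 by 2.50 times for *Kcnmb1*, 2.28 for *Kcnj4*, 2.22 for *Kcnu1* and 2.10 for *Kcnab2*. *Kcnh4* and *Kcng3*, with means over all libraries below 1 CPM, gave 2.72 and 2.56 times, but passed the filter through replicate 3 itself. *Abcc8* and *Kcnj11* were not lower in proportion. Their FPKM ratio, *Abcc8* over *Kcnj11*, was 7.26, 7.17 and 3.94 in control and 6.66, 6.94 and 4.27 in activated replicates 1, 2 and 3.

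Within the control libraries the log2 difference of replicate 3 was -2.41 for *Abcc8*, -1.61 for *Kcnj11* and -3.86 for *Kcnk16*. Within the activated libraries it was -1.89, -1.28 and -3.18 for the same genes. All 12 members that were lower in replicate 3 had a smaller difference in the activated than in the control libraries, as did 68.5% of the 1928 genes that were lower among all tested. Of the 13 higher members, 4 (30.8%) had the smaller difference in the activated libraries, against 56.8% of 1973 genes. Whether the difference between replicates depends on the condition was not tested, and each condition has 1 replicate 3 library.

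**Figure D3:**
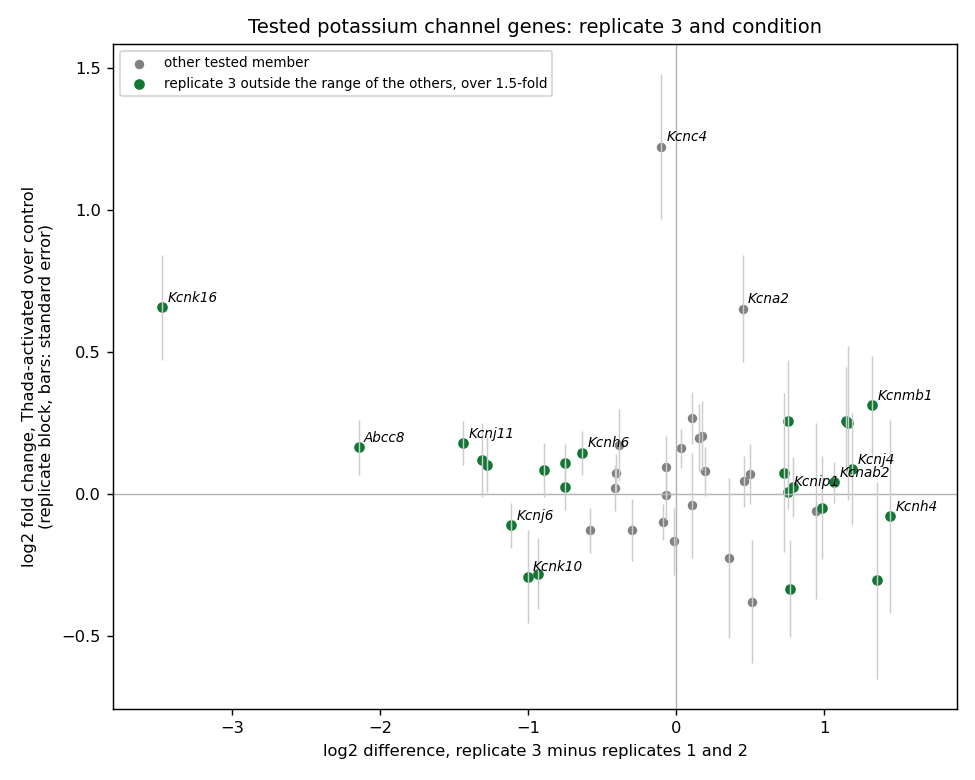
For the 47 tested potassium channel genes, the log2 difference of replicate 3 from replicates 1 and 2 (horizontal) against the log2 fold change between conditions (activated over control) in the fit with the replicate block (vertical, bars show the standard error). *Kcnk16* (-3.47) and *Abcc8* (-2.14) lie farthest to the left, and *Kcnc4* (1.22) lies highest, at a replicate 3 difference of -0.10.

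Some cell type markers also differed in replicate 3. Besides the 2 KATP genes, the β-cell markers *Pdx1* (log2 difference -1.03), *Slc30a8* (-0.96), *Mafa* (-0.61), *Iapp* (-0.58) and *Nkx6-1* (-0.33) were lower in both replicate 3 libraries than in the other 4. For *G6pc2* this held in control replicate 3 alone, at 3418, 4010 and 2558 CPM in control and 3167, 3059 and 3136 CPM in activated replicates 1, 2 and 3. *Ins1* (0.82) and *Ins2*, the most abundant marker, were higher in replicate 3, *Ins2* with 6.37%, 5.65% and 10.2% of counts in control and 6.44%, 6.29% and 8.36% in activated libraries. *Sst*, the δ-cell hormone gene, was counted at 154, 129 and 67.9 CPM in control and 143, 131 and 59.2 CPM in activated libraries, whereas the other δ-cell marker, *Hhex*, was at the floor in every library. Of the 4 neuronal markers 3 were at 1 CPM or more, and 2 of them went opposite ways in replicate 3. *Snap25* had 213, 227 and 97.2 CPM in control and 219, 216 and 153 CPM in activated libraries, and *Tubb3* had 62.6, 67.3 and 116 against 69.1, 70.3 and 110 CPM. The part of these shifts in the potassium channel differences was not tested, and in bulk RNA fewer cells expressing a gene and less RNA per cell cannot be told apart.

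A list of 43 other genes that set the membrane voltage of β-cells was read in the same way, of which 42 were in the table and 34 were tested. By edgeR's test 0 of the 34 were called with or without the replicate block, and at an unadjusted p under 0.05 there were 0 without and 5 with the block, among them *Amigo1*, *Dpp10* and *Atp1b2*. Of these 3 were higher (8.82% of the 34, against 6.06% of all tested genes) and 2 lower (5.88%, against 4.34%). *Amigo1*, a partner of voltage-gated channels, had 202, 197 and 182 CPM in control and 225, 222 and 257 CPM in activated replicates 1, 2 and 3. Its log2 fold change was 0.25 (adjusted p = 1 in edgeR's test, 0.242 with the block). In all, 2 of the 34 were higher without overlap (5.88%, against 2.7% of all tested genes) and 0 were lower (against 2.7%).

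In replicate 3, 6 of the 34 were apart on the lower side (17.6%, against 15.4% of all tested genes) and 6 on the higher (17.6%, against 15.8%). Among 14 tested depolarizing channels 2 were higher, *Scn3b* and *Trpm4*, and the median log2 difference was 0.27. The 3 lower ones were led by *Trpm5*, a calcium-activated cation channel gene, at 193, 214 and 19.3 CPM in control and 200, 192 and 37.3 CPM in activated replicates 1, 2 and 3. The sodium leak channel gene *Nalcn* was lower too, at 65.7, 72.1 and 27.1 CPM against 64.8, 65.1 and 39.7 CPM. Of 7 tested genes of the sodium-potassium pump and potassium transport none was lower, and 2 were higher. *Atp1b2*, a pump subunit, had 44.9, 44.1 and 143 CPM in control and 37.9, 34.7 and 145 CPM in activated libraries.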

How the data were processed

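RNA of 3 control and 3 *Thada*-activated MIN6 libraries was sequenced on a BGISEQ-500 instrument. Deposited were the authors' estimated counts per gene, not normalized, and FPKM values, scaled by gene length and library size. The submitters' processing notes name Bowtie2, RSEM and DESeq2 with GRCm38, without versions or roles. The authors' table also holds log2 fold changes, p-values and q-values from their own DESeq2 comparison, which were not used. There, 1 annotation cell was split over lines, and the split-off line, which held no values, was skipped.

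CPM was computed from the estimated counts over the library total. Between 91.1% and 91.9% of estimated counts were exactly whole numbers, and all were rounded for testing. Tests ran in R 4.3.3 with edgeR 4.0.16: filterByExpr chose the genes, TMM gave the scaling, and a robust quasi-likelihood fit had condition as its only term, and p-values were adjusted by Benjamini-Hochberg over all 12516 tested genes. Called means an adjusted p under 0.05 and a fold change over 1.5. Replicate 3 was described by a fit with condition and replicate 3 as terms. Alternatives used DESeq2 1.42.0, limma 3.58.1 with trend on log2 FPKM with a pseudocount of 1 or 0.1, DESeq2 size factors, other filters, a replicate block, and left-out libraries or pairs. The fits were tested on simulated data, with large changes placed in well-counted genes only. Where the simulated replicate 3 differed as in these libraries, edgeR without the block recovered fewer changed genes than with it. Recovery for scarce members or small changes was not tested.

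Genes were named by a rule: the 4 KATP genes (*Kcnj8* and *Abcc9* are given as highest counts only), *Thada*, the 10 members with the highest mean FPKM, the 5 expressed members with the lowest p in the blocked fit, and the 5 expressed members with the largest replicate 3 difference in each direction. *Kcnn3* and *Kcnq3* were added after their values were seen, as were other members named for a count or a level. Other genes of excitability and cell type markers came from fixed lists, and those given with values were picked after their values were seen. Some genes that these rules and lists name are not reported here, but all counts include them. The members and lists were chosen with earlier results of these data known.

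The labels give both conditions the replicate numbers 1, 2 and 3 without saying that equal numbers belong together. With each condition's mean subtracted, libraries of the same number correlated across genes at 0.667, 0.671 and 0.869, so the number was used as a block. Crossing replicates 1 and 2 gave 0.705 and 0.726, so the pairing rests on replicate 3. Libraries of a condition differed by more than counting noise, with a chi-square over its degrees of freedom of at least 1.81. Between replicates 1 and 2 it was 4.30 in control and 1.81 in activated cells, against 89.8 or more with replicate 3. Tests of replicates 1 and 2 alone therefore rest on a far smaller spread. Exons and strands were read from GENCODE M21.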

Additional observations from a re-analysis of the deposited data

How the results depend on the processing

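The count of 0 called potassium channel genes held under DESeq2, DESeq2 size factors in edgeR, other filters, limma on FPKM and no fold threshold. It also held with the replicate block in edgeR or DESeq2, and with each library left out. It became 2 in replicates 1 and 2 alone, and in the blocked fit 1 without pair 1 and 2 without pair 3. Over all genes the count of 0 became 5 with DESeq2, 19 with the replicate block, 20 with the replicate block in DESeq2 and 68 in replicates 1 and 2 alone. The blocked fit called 43, 18 and 70 genes without pair 1, 2 or 3. Members apart in replicate 3 numbered 25 and became 14 at a 2-fold difference, but between 22 and 27 under the other alternatives, and the 45 expressed members became between 36 and 48. The block changed no other call than that of *Thada* among the named genes.

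With 1 library left out, the log2 fold change ranged from -0.23 to 0.45 for *Kcnj11*, -0.41 to 0.45 for *Abcc8*, -0.11 to 0.26 for *Kcnh6*, -0.30 to 0.29 for *Kcnip1*, -0.0906 to 0.16 for *Kcnip3*, -0.40 to 0.50 for *Kcnab2*, -0.31 to 0.36 for *Kcnb2*, -0.32 to 0.31 for *Kcnf1*, -0.25 to 0.93 for *Kcnmb1*, -0.49 to 0.54 for *Kcnj4* and -0.34 to 0.64 for *Kcnu1*. These fits have unequal numbers of replicate 3 libraries or of the others in the 2 conditions. In replicates 1 and 2 alone the sign turned for *Abcc8* (-0.0025), *Kcnip1* (-0.0276), *Kcnb2* (-0.0387), *Kcnf1* (-0.0537), *Kcnj4* (-0.0753) and *Kcnu1* (-0.0058). In the blocked fit without pair 3 the same genes had -0.0020, -0.0279, -0.0385, -0.0539, -0.0849 and -0.0081, and without pair 1 *Kcnab2* had -0.0201. None of these passed the threshold, and the cause was not tested.

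For the 17 named genes other than *Kcnj11* and *Abcc8*, 264 of 305 values kept their direction and their side of the threshold, 29 turned sign and 12 passed the threshold anew, which were 7 of *Thada*, 3 of *Kcnc4* and 2 of *Kcnk16*. *Kcnk16* could not be fitted where each library had to hold 10 counts. The standard error of *Kcnk16* was 1.08 without and 0.19 with the block, and how much low counts add to it was not tested.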
